A study of Mus musculus with 10 samples.

Results

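The Fam19a genes encode a family of small secreted proteins of the nervous system, and their ribosome-protected mRNA fragments (RPFs, or footprints) were followed here in mouse neocortex across neurogenesis. The family has 5 members, Fam19a1 to Fam19a5 (later renamed Tafa1 to Tafa5), and all 5 were found by gene symbol among the 22373 genes of the footprint table. The family was taken up because Fam19a1 was selected on its measured footprint counts in these same libraries, namely its onset at E15.5. Its comparisons up to E15.5 and against E12.5 are therefore given as a description, with no test, while the other members entered by family name. Its later steps were tested, but the first of them starts from the E15.5 values that entered the choice. The libraries came from wild-type CD-1 mice of the embryonic (E) ages E12.5, E14, E15.5 and E17 and of the day of birth (P0), with 2 libraries per stage. Each library was made from the dissected neocortex of many animals of both sexes, so a replicate is a pool, and p-values measure the spread between pools. All libraries were treated alike, with RNase T1 and RNase A used to trim mRNA to the part covered by the 80S ribosome.

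FAM19A proteins are short, cysteine-rich and made with a signal peptide, and they resemble chemokines distantly. FAM19A1 to FAM19A4 are close relatives that bind neurexins, the presynaptic adhesion proteins, as both pass through the secretory pathway, while FAM19A5 is the most divergent member. Several receptors have been put forward for the secreted proteins, among them GPR1 for FAM19A1, FPR1 for FAM19A4, and S1PR2 and LRRC4B for FAM19A5. In the brain the family is known mainly from neurons. Footprints count both mRNA and the ribosomes on it, and in bulk tissue a change in the number of expressing cells cannot be told apart from a change within each cell.

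The promoters are shown for the 3 members whose footprints were numerous enough to test, because they differ plainly in base composition. They come from RefSeq (build GRCm38.p6), run 5′ to 3′ on the strand of the gene, and span 250 bases before to 50 after the start of transcription. Capitals mark every CpG dinucleotide. The Fam19a1 window lies at chr6:96112904-96113203 on the plus strand, that of Fam19a2 at chr10:123263826-123264125 on the plus strand, and the first of the 2 Fam19a5 windows at chr15:87544049-87544348 on the plus strand.
Fam19a1: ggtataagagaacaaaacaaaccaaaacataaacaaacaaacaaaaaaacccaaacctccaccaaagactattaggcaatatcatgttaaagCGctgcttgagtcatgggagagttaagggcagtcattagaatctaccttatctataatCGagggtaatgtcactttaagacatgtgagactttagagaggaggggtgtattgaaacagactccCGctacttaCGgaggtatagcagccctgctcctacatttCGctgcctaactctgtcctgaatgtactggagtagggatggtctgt
Fam19a2: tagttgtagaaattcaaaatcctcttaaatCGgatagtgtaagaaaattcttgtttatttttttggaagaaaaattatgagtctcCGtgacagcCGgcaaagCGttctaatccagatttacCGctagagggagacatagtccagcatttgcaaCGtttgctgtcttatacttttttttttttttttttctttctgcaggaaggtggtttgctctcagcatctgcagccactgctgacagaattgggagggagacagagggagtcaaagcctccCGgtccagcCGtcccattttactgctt
Fam19a5: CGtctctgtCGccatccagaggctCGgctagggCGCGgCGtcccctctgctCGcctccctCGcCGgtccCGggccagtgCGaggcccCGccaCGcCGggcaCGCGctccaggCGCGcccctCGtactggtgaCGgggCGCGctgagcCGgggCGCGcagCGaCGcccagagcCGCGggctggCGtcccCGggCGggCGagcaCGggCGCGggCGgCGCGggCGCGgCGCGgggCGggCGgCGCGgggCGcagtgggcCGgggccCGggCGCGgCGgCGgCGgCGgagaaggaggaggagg

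The Fam19a1 promoter held 5 CpG dinucleotides in 300 bases and a GC content of 42%, and that of Fam19a2 held 8 with 41.7%. The Fam19a5 promoter held 56 with 83.7%, and its other RefSeq start had 47 with 81%. Over the 32851 promoters of the RefSeq table, the medians were 7 CpG dinucleotides and 52.7% GC. Fam19a1 thus stood at or above 14.9% of promoters by GC content, Fam19a2 at or above 14.1% and Fam19a5 at or above 99.8%. Fam19a3 (11 CpG dinucleotides, 53.7% GC) and Fam19a4 (17 and 66.7%) lay between them. The E-box CANNTG, read on both strands, was found 1 time in the Fam19a1 window, 2 times in that of Fam19a2, 2 times in that of Fam19a3, 3 times in that of Fam19a4 and in neither window of Fam19a5, and 72.3% of all promoters hold it. CAGATG, the form of the E-box favoured by NeuroD and Neurogenin factors and also a CANNTG match, was found 1 time each in Fam19a2 and Fam19a3 and not in Fam19a1, Fam19a4 or Fam19a5, against 17.2% of all promoters. The GC box GGGCGG was found 4 times in each Fam19a5 window and in none of the windows of the other 4 members, against 35.7% of all promoters. These matches describe letters in a window, and no binding was measured.

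Libraries held between 7544404 counts (P0 replicate 1) and 36129988 counts (E14 replicate 2). The P0 replicates stood apart from each other, with an SD of 0.54 for the log2 ratio between replicates over 4559 genes, against 0.128 to 0.221 at the embryonic stages. All 11 markers of dorsal telencephalon and cortical neurons were above 0 in all 10 libraries. Marker lists of other cells and tissues also changed between stages. The 12 markers of ganglionic eminence and interneurons summed to 51.2 to 52.8 counts per 1000000 (CPM) at E14, 141 to 150 at E15.5 and 195 to 229 at P0. Of these, 6 of 11 tested were called higher at E15.5 than at E14 and 1 lower. Of all 13484 genes tested, 2222 were called higher there and 2646 lower, 36.1% in either direction. Gsx2 and Isl1 were at 0 in some libraries. The 10 choroid plexus markers summed to 286 to 345 CPM at E12.5, 1160 in each E14 library and 11.4 to 13.8 at E15.5. From E14 to E15.5, 7 of 7 tested were called lower. Ttr made up most of the E14 sum, with 1080 CPM in each library. Slc4a5, Cldn2 and Prlr were at 0 in both E15.5 libraries, but Cldn2 and Prlr had at most 0.133 and 0.0317 CPM at E14. Kl had 0.0883 to 0.127 CPM at E14 and 0.0904 to 0.127 at E15.5. The 9 markers of meningeal fibroblasts had sums of 79.1 to 88.9 CPM at E14 and 3.59 to 3.86 at E15.5, with 9 of 9 called lower. The 11 glial markers had sums of 239 to 254 CPM at E14, 178 in each E15.5 library and 279 to 286 at P0. Aldoc made up most of that sum (210 to 217 CPM at E14 and 124 to 132 at E15.5), whereas Aldh1l1 had 0.982 to 1.06 and then 11.7 to 12.9 CPM. Of 9 glial markers tested, 2 were called higher and 2 lower from E14 to E15.5, and 7 higher and 1 lower from E12.5 to P0. Over that whole course 4058 of all 13484 genes tested were called higher and 4313 lower, 62.1% in either direction. The 9 red blood cell markers had sums of 10000 to 11100 at E14, 6910 to 7420 at E15.5 and 1440 to 1860 at P0. The part of these cells and tissues in the changes below was not tested.

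Fam19a1 (ENSMUSG00000059187) is the member reported to bind both neurexins and the receptor GPR1. It had 7 and 0 footprints in the E12.5 libraries and 0 and 2 in the E14 libraries. At E15.5 it had 102 and 79 footprints, or 3.07 and 3.34 CPM (CPM is here on the TMM scale, which corrects library size for composition). The first stages were thus at or close to the floor that a count of 0 allows, which was 0.0951 to 0.165 CPM over the 4 early libraries for 3 counts. The 7 footprints of E12.5 replicate 1 (0.385 CPM, exact Poisson interval 0.155 to 0.793) lay above that floor, and its partner library held none. These values made the choice of the gene, and the changes between them carry no test.

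Measured levels of Fam19a1 were higher again after the stage for which it was picked. A call needed a limma-voom adjusted p under 0.05 together with a level at least 25% above that of the lower stage. It had 7.84 and 6.98 CPM at E17 (247 and 186 footprints) and 8.70 and 11.1 CPM at P0 (80 and 464 footprints). Both E17 libraries were above both E15.5 libraries, and both P0 libraries were above both of E17. Such absence of overlap, in any direction, was found for 67.8% and 55.8% of all genes tested at these steps. The rise from E15.5 to E17 was 2.32-fold (log2 fold change 1.21, SE 0.23, adjusted p by limma-voom 0.0201) and was called, as were 9.04% of all genes. Its starting point, E15.5, entered the choice of the gene, so this test is not independent of that choice. The call was lost with edgeR (adjusted p 0.122) and without the filter on low counts (0.109). It was also lost without any one of the E15.5 and E17 libraries, with log2 fold changes of 1.13 to 1.29. Fits of the latter kind left 1 library in a stage, and nearly all calls over all genes were lost in them too. From E17 to P0 the log2 fold change was 0.45 (SE 0.21, adjusted p 0.16), a change that was not called, where 20.5% of all genes were. The log2 fold change was 0.58 without the shallow P0 replicate 1 and 0.24 without P0 replicate 2, each fit leaving 1 library at P0. From E12.5 to P0 the pooled CPM had a ratio of 68.3 (exact binomial interval 32.9 to 171, for counting error alone). The fitted log2 fold change was 7.20 with all libraries, 9.09 without E12.5 replicate 1 and 4.62 without E12.5 replicate 2.

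**Figure D1:**
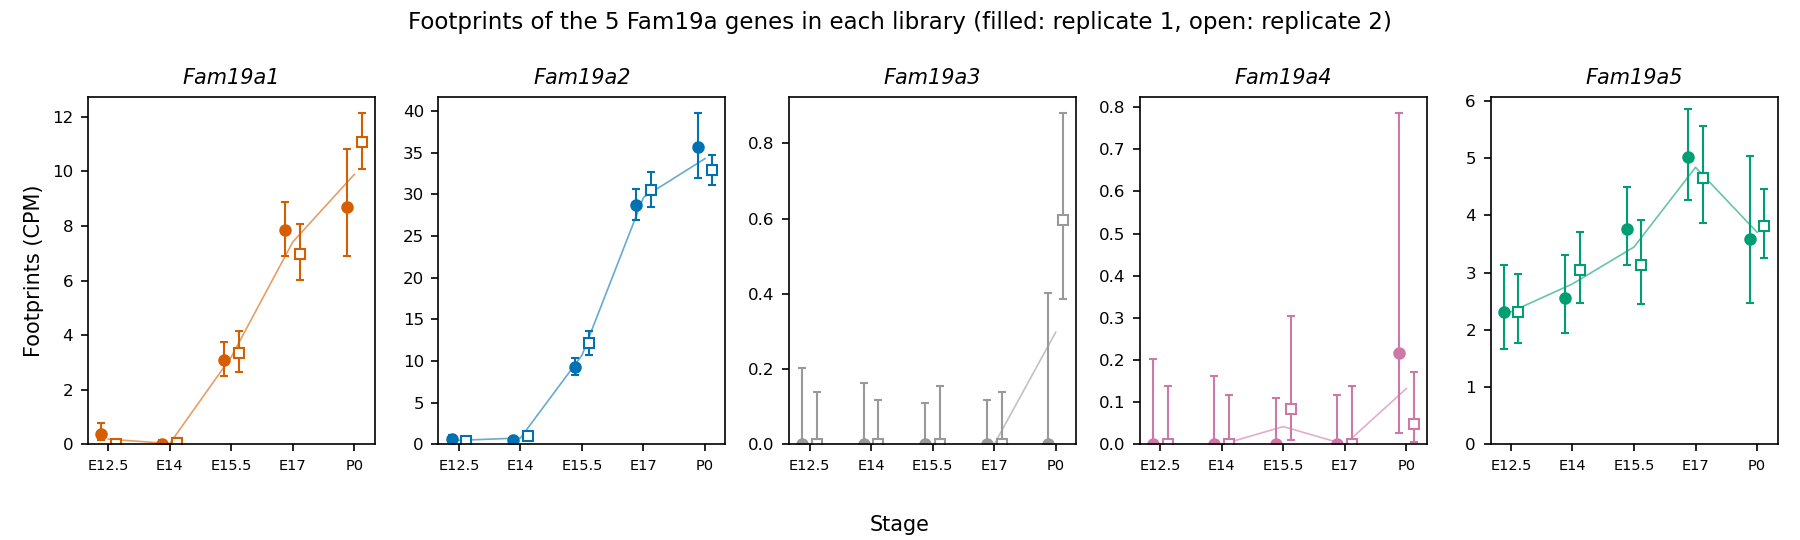
Footprints of each Fam19a gene in each library, in CPM on a linear axis from 0 that differs between panels; points are libraries, bars are exact 95% Poisson intervals for counting error, and lines join stage means. Fam19a1 and Fam19a2 were near 0 up to E14 and climbed from E15.5, Fam19a5 was present at every stage with its highest mean, 4.84 CPM, at E17, and Fam19a3 and Fam19a4 stayed below 1 CPM.

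Fam19a2 (ENSMUSG00000044071), which also binds neurexins, entered by its family name and rose at the same step. It had 0.605 and 0.374 CPM at E12.5 (11 and 10 footprints) and 0.530 and 1.01 CPM at E14 (12 and 32 footprints). At E15.5 it had 9.28 and 12.1 CPM, from 308 and 287 footprints. The early stages overlapped each other, while both E15.5 libraries were far above all 4 of the earlier ones. The E14 and E15.5 libraries did not overlap, in any direction, for 76.9% of all genes tested. The step from E12.5 to E14 did not pass the test (log2 fold change 0.75, SE 0.50, adjusted p by limma-voom 0.521), which called 0.638% of all genes there. The step from E14 to E15.5 was a 13.2-fold rise (log2 fold change 3.73, SE 0.31, adjusted p 0.000133), which ranked as number 22 among 13484 genes tested, 36.1% of which were called in either direction. With any one library left out the log2 fold change was between 3.36 and 4.26 and the call was kept (adjusted p 6.55e-05 to 0.00284).

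The rise of Fam19a2 continued to E17, when it had 28.7 and 30.5 CPM (905 and 813 footprints), both above E15.5, a step without overlap for 67.8% of all genes. This was a 2.81-fold rise (log2 fold change 1.49, SE 0.17, adjusted p by limma-voom 0.00743). The call was lost without any one of the E15.5 and E17 libraries, with log2 fold changes of 1.29 to 1.67. These fits left 1 library in a stage, and nearly all calls over all genes were lost in them too. At P0 it had 35.7 and 32.9 CPM (328 and 1378 footprints). Both P0 libraries were above both E17 libraries, but the difference did not pass (log2 fold change 0.20, 95% interval -0.16 to 0.57, adjusted p 0.387). The libraries of E17 and P0 did not overlap, in any direction, for 55.8% of all genes tested. Over the whole course from E12.5 to P0 the fitted log2 fold change was 6.17 (SE 0.42, adjusted p 6.37e-06), number 30 among 13484 genes, 62.1% of which were called.

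Fam19a5 (ENSMUSG00000054863), the divergent member, followed another course. Its E12.5 libraries had 2.31 and 2.32 CPM (42 and 62 footprints), those of E14 had 2.56 and 3.04 (58 and 96), and those of E15.5 had 3.77 and 3.12 (125 and 74). The E17 libraries had 5.02 and 4.66 CPM (158 and 124 footprints) and those of P0 had 3.59 and 3.82 (33 and 160). The libraries of each stage did not overlap with those of the next at any of the 4 steps, with higher values up to E17 and lower ones at P0. The same absence of overlap at all 4 steps, in any direction, was found for 20.4% of all genes tested, and at single steps for 53.2 to 76.9%. None of these steps of Fam19a5 was called. The log2 fold changes were 0.28 (SE 0.17, adjusted p by limma-voom 0.481), 0.29 (SE 0.15, adjusted p 0.173), 0.48 (SE 0.14, adjusted p 0.074) and -0.36 (SE 0.15, adjusted p 0.119). From E15.5 to E17 the gene was called with sample quality weights (adjusted p 0.0112) and in a fit of these 2 stages alone (0.0434). Over all genes these fits called 3717 and 3212 at this step, against 1219 in the main fit. It was also called without either P0 library (log2 fold change 0.48 in each fit), where calls over all genes rose too.

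Over the whole course Fam19a5 rose 1.62-fold from E12.5 to P0 (log2 fold change 0.69, SE 0.17, adjusted p by limma-voom 0.0074). That call was lost without P0 replicate 2 (adjusted p 0.0558) and with sample quality weights (0.103). The moderated F test over the 5 stages was passed by Fam19a5 (adjusted p 0.00391) and by Fam19a2 (1.35e-05), as by 63.8% of all genes tested. Scaling matters more for Fam19a5 than for the others, because its changes are small. With total counts only, its log2 fold change from E14 to E15.5 was 0.59 and was called (adjusted p 0.0173), but the median gene moved by 0.29 with it. After subtraction of the median over all genes it was 0.30 under TMM, total-count and DESeq2-style scaling.

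Fam19a3 (ENSMUSG00000055865) and Fam19a4 (ENSMUSG00000046500), the remaining neurexin-binding members, did not pass the filter of 32 footprints in a stage and were not tested. Fam19a3 had 0 footprints in 9 libraries and 25 in P0 replicate 2, or 0.597 CPM (exact Poisson interval 0.386 to 0.881). P0 replicate 1 was shallower, and at the pooled level of both it would have held 4.5 footprints. Its floor of 3 counts was 0.326 CPM. One library thus holds all the signal of Fam19a3. Fam19a4 had 2 footprints each in E15.5 replicate 2, P0 replicate 1 and P0 replicate 2, and 0 in the other 7 libraries, which allows up to 0.0904 to 0.165 CPM there. Fam19a4 and Fam19a1 are neighbours on chromosome 6, with no other gene between them in the RefSeq table.

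The make-up of the family's footprints turned over between E14 and E15.5. The totals include Fam19a1, picked for its onset at E15.5, so part of the fall in the Fam19a5 share followed from that choice. Fam19a5 and Fam19a2, which entered by name, also changed order in their counts. At E14 Fam19a5 had 58 and 96 footprints and Fam19a2 had 12 and 32. At E15.5 they had 125 and 74, and 308 and 287. Shares of a count total do not depend on library scaling, but they are not corrected for coding length, so only their change over stages is compared. Fam19a5 held 70.0% and 86.1% of the family's footprints at E12.5 (exact binomial intervals 56.8 to 81.2% of 60 footprints and 75.9 to 93.1% of 72). It held 82.9% and 73.85% at E14. At E15.5 its share was 23.4% and 16.7% (intervals 19.8 to 27.2% and 13.4 to 20.6%), at E17 it was 12.1% and 11.04%, and at P0 it was 7.45% and 7.89%. The share of Fam19a2 was 13.9 to 24.6% in the 4 early libraries and 57.6 to 74.0% in the 6 later ones. With 2 libraries a stage, an exact permutation test between stages cannot give a p under 0.33, so these shares carry counting intervals only.

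Once both were present, Fam19a1 held 18.6 to 25.2% of the footprints of Fam19a1 and Fam19a2 together. Its share was 24.9% and 21.6% in the E15.5 libraries, 21.4% and 18.6% in those of E17, and 19.6% and 25.2% in those of P0. Both E17 libraries lay below both E15.5 libraries, but narrowly. The nearest values were 21.4% (interval 19.1 to 23.9%) at E17 and 21.6% (17.5 to 26.2%) at E15.5. The E15.5 values of Fam19a1, which entered its choice, are part of these shares. The P0 libraries overlapped with either stage. The shares of the P0 replicates differed by more than those of E15.5 or E17, with intervals of 15.9 to 23.8% and 23.2 to 27.2%. In the earliest libraries the pair had too few footprints to compare, with Fam19a1 at 7 of 18, 0 of 10, 0 of 12 and 2 of 34. The family summed to 2.69 to 4.12 CPM in the 4 early libraries, 16.1 and 18.7 in those of E15.5, 41.6 and 42.2 in those of E17, and 48.2 and 48.4 in those of P0. These sums include Fam19a1, so part of their rise at E15.5 followed from its choice.

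**Figure D2:**
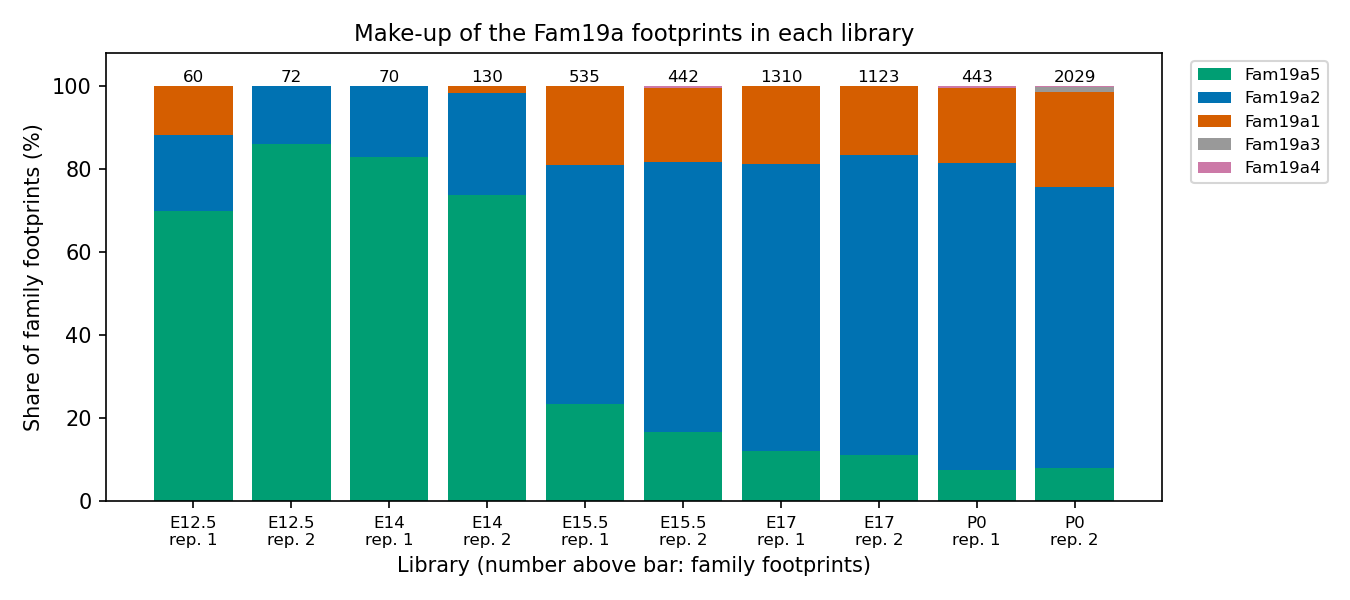
Share of the family's footprints held by each member in each library, in percent of the number printed above the bar. That number includes Fam19a1, picked for its onset at E15.5. Fam19a5 held 70.0 to 86.1% in the E12.5 and E14 libraries and 7.45 to 23.4% from E15.5 on; Fam19a2 held 57.6 to 74.0% there.

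Counts of called members were read against all genes. From E12.5 to E14, 0 of 2 members tested were called, as were 0.638% of all genes; 0 had an unadjusted p under 0.05, and edgeR and DESeq2 called 0. From E14 to E15.5, 1 of 2 was called, Fam19a2, against 36.1% of all genes. From E15.5 to E17, 2 of 3 were called, Fam19a2 and Fam19a1, against 9.04%; the E15.5 libraries of Fam19a1 had also entered its choice, so its call is no independent count. From E17 to P0, 0 of 3 were called, against 20.5%; only Fam19a5 had an unadjusted p under 0.05 (0.0392), and edgeR and DESeq2 called 0. From E12.5 to P0, 2 of 2 were called, against 62.1%. With 2 or 3 members tested, these counts do not set the family apart from other genes.

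**Figure D3:**
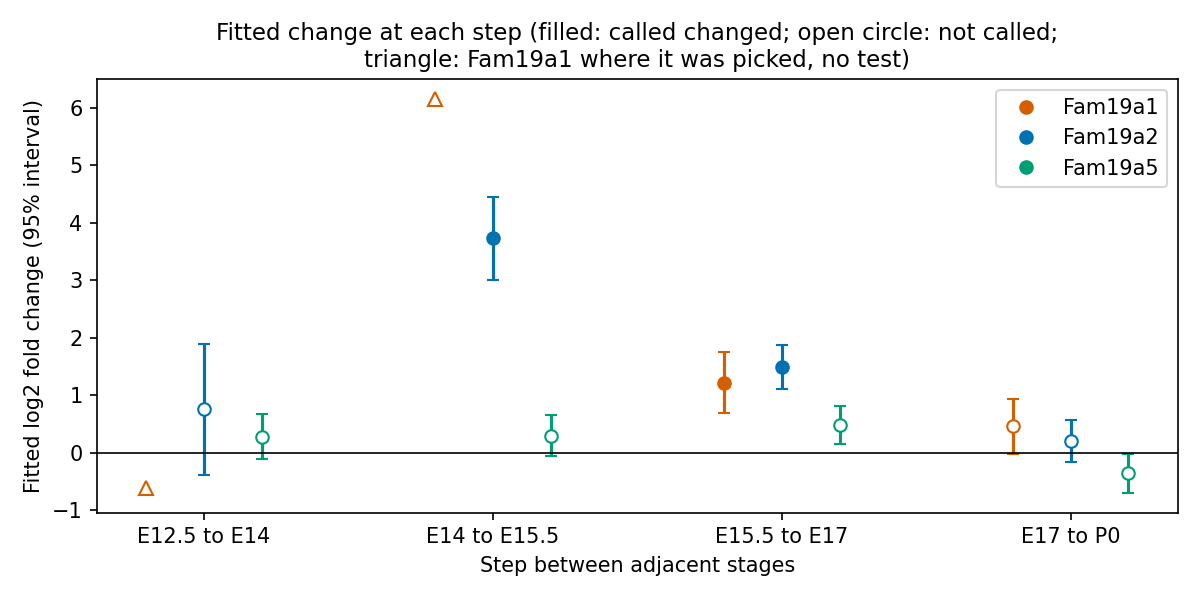
Fitted log2 fold change, later minus earlier stage, of the 3 tested members at each step between adjacent stages. Bars are 95% intervals, filled circles were called, open circles were not, and triangles mark Fam19a1 where its own values led to its choice; Fam19a2 stands at 3.73 from E14 to E15.5, while Fam19a5 stays between -0.36 and 0.48.

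The reported partners of the family were examined next. Neurexins are presynaptic adhesion proteins, and Nrxn2 and Nrxn3 were both called higher from E14 to E15.5, by smaller factors than Fam19a2. Stage means of Nrxn3 over 2 libraries went from 1.98 CPM (E12.5) and 2.57 (E14) to 5.15 (E15.5), 11.4 (E17) and 8.79 (P0). It was called higher from E14 to E15.5 (by 0.99 on the log2 scale, SE 0.19, adjusted p by limma-voom 0.00476) and from E15.5 to E17 (1.14, SE 0.16, adjusted p 0.00921). Nrxn2 had a stage mean of 13.2 CPM at E14, 23.5 one step later and 40.7 at E17. It was called at the first of these steps (0.83, SE 0.24, adjusted p 0.026) but not at the next (0.79, SE 0.23, adjusted p 0.0658). From E17 to P0 the log2 fold changes of Nrxn2 and Nrxn3 were 0.0024 and -0.39, neither of them called, and the P0 libraries of Nrxn2 lay far apart (31.7 and 55.9 CPM). The call of Nrxn3 from E15.5 to E17 was lost without any one of the libraries of these 2 stages. So were those of the other neurexin ligands below and nearly all calls over all genes.

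The receptors gave fewer footprints. Gpr1 had 6 footprints in the whole series, Fpr1 had 2 and Fpr2 had 1, so 3 of the 7 reported partners examined were not tested. S1pr2, a receptor for the lipid sphingosine 1-phosphate, had 0.69 CPM at E14 and 0.314 at E15.5, a difference that did not pass (log2 fold change -1.10, SE 0.44, adjusted p by limma-voom 0.0818). Lrrc4b, a postsynaptic adhesion protein, had 5.54 CPM at E12.5 and 10.8 at E17, and none of its steps was called (adjusted p 0.126 to 0.687). Of the 4 partners tested, 2 were called higher from E14 to E15.5, 1 from E15.5 to E17 and 2 from E12.5 to P0. All of them were Nrxn2 or Nrxn3, and 0 were called lower. Of the 13484 genes tested, 2222, 757 and 4058 were called higher in these comparisons, and 36.1%, 9.04% and 62.1% in either direction.

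The other proteins that bind neurexins were taken as a further list of 14 genes, all tested. From E14 to E15.5, 7 were called higher and 1 lower (median log2 fold change 0.94, against -0.0086 for all genes). Of the 13484 genes tested, 2222 were called higher there and 2646 lower, 36.1% in either direction. The higher ones were Nlgn1, a neuroligin, the leucine-rich repeat genes Lrrtm1, Lrrtm2 and Lrrtm3, the cerebellin Cbln1, and the neurexophilins Nxph1 and Nxph3. Lrrtm2 had the highest of these values (log2 fold change 1.65, SE 0.34, adjusted p by limma-voom 0.00667). Nxph4, also a neurexophilin, was called lower (-1.54, SE 0.15, adjusted p 0.000217), and its mean level was 15.9 CPM at E14, 5.47 one step later and 1.89 at P0. With 1 library left out, 7 to 11 genes of both lists were called at this step, against 10 with all. From E15.5 to E17, 3 were called higher (Nlgn1, Nxph1 and Clstn3, a calsyntenin) and 0 lower, against 757 and 462 of 13484 genes (9.04% in either direction). From E17 to P0, 0 were called higher and 2 lower, Nlgn1 and Nxph4, against 1275 and 1492 of 13484 genes (20.5% in either direction). From E12.5 to P0, 12 of 14 were called higher and 1 lower, against 4058 and 4313 of 13484 genes (62.1% in either direction). Among the 12 was Cbln4, which passed the filter only through E17 and P0 (55 and 64 footprints, against 15 at E12.5). Its call is therefore not independent of the filter. From E12.5 to E14, 0 genes of either list were called by limma-voom.

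**Figure D4:**
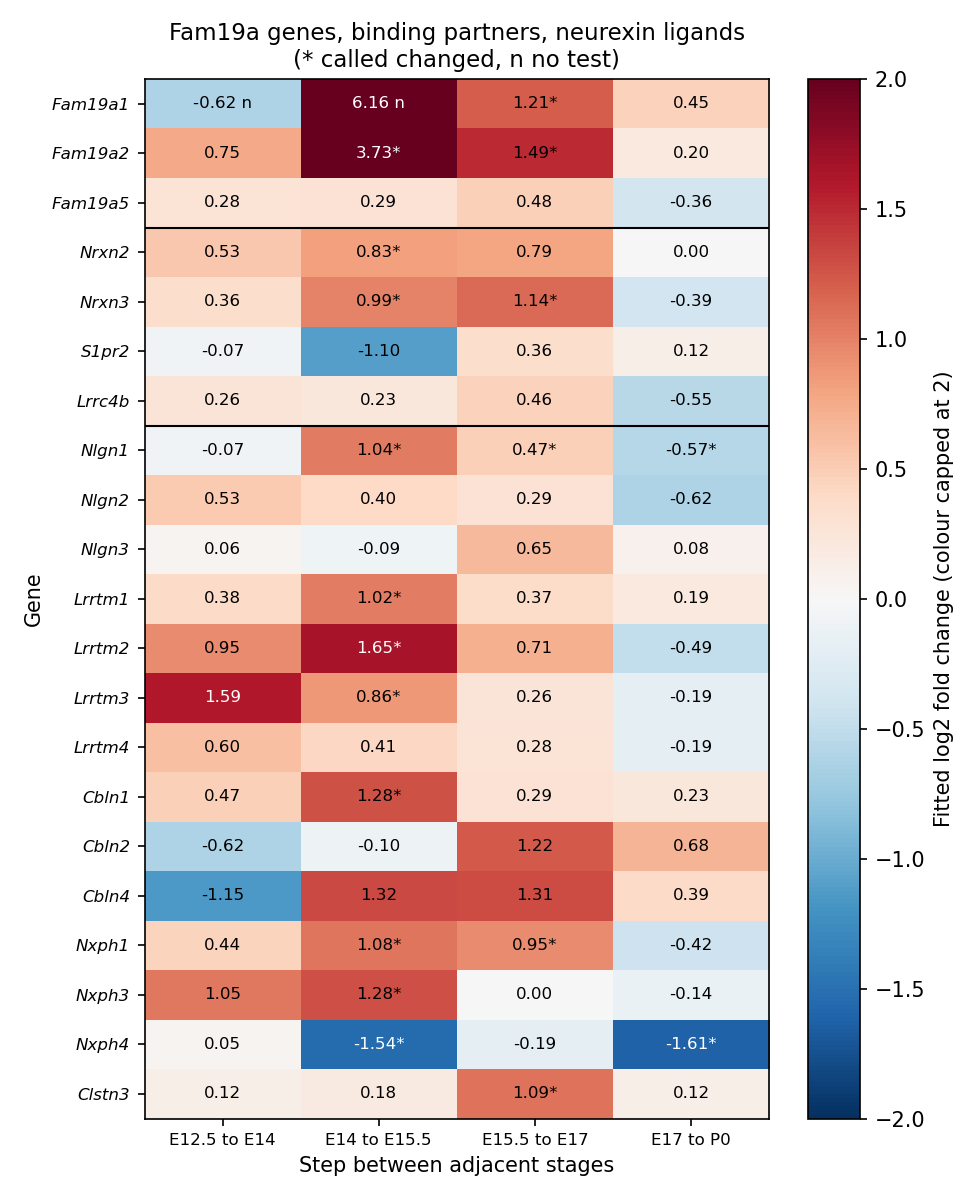
Fitted log2 fold change of the tested Fam19a genes (top), their reported partners (middle) and other neurexin ligands (bottom) at each step, with the value in each cell and the colour capped at 2. An asterisk marks a called change and n a value without a test; most asterisks stand from E14 to E15.5, and Nxph4 is the only ligand called lower there.

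Lastly, the genes whose profile over the 10 libraries was most like that of each tested member were listed, by Pearson correlation of log2 CPM over genes that averaged 100 counts or more per library. These correlations describe profiles that share libraries and depth, and many genes follow the same developmental trend. For Fam19a1 they were Ttc30a2 (r = 0.990), Atxn7l3 (0.987), Clvs2 (0.982) and Stum (0.981), and Fam19a2 ranked as number 20 of 9214 (0.972). Clvs2, which encodes a clathrin-binding lipid transfer protein of neurons, had 0.725 CPM at E14, 5.24 at E15.5 and 20.6 at P0. Ttc30a2 was well above 0 from the start and moved little, with 3.56 CPM at E14 and 4.83 at P0, and Atxn7l3 had 14.7 and 28.3 CPM, so a high correlation did not require an onset from near 0. For Fam19a2 they were Kcnq5, a potassium channel gene (0.996), Sptbn1, a spectrin gene (0.994), Arhgap20 (0.993) and Itpr1, an intracellular calcium channel gene (0.993). Among genes like Fam19a2, Fam19a1 ranked only as number 297 of 9214 (0.972). The Fam19a1 values that led to its choice entered the ranks in both directions. The stage means of Kcnq5 were 1.59 CPM (E14), 4.46 (E15.5) and 7.72 (E17).

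For Fam19a5 the genes most alike were Scube1 (r = 0.974), Gria2, an AMPA receptor subunit gene (0.965), Slco1c1, a thyroid hormone transporter gene (0.965), and Gpm6a, a neuronal membrane glycoprotein gene (0.964). These 4 genes shared with Fam19a5 a highest stage mean at E17 and a lower one at P0, as in Gria2, with 38.6 and 25.3 CPM. Fam19a2 ranked as number 234 of 9215 for Fam19a5 (0.885) and Fam19a1 as number 950 (0.822). By Spearman's rank correlation, 1 of the 4 genes named for Fam19a1 was among the first 4, and 0 of those named for Fam19a2 or Fam19a5 were.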

How the data were processed

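Per the study's methods, the authors trimmed adapters, collapsed duplicate reads, removed random end bases and discarded tRNA, rRNA and snoRNA reads with Bowtie 2. They aligned the rest to GENCODE M12 with STAR, keeping reads that match several places. The submitters' processing notes give STAR version 2.7.0, while the methods name an earlier version. The file as deposited gives unscaled footprint counts, as whole numbers, for each gene and library. The methods name DeepShape-prime abundances of transcripts, turned into length-corrected counts per gene with tximport. Whether this file came by that route is not stated. It holds 1 row per gene, so the 2 starts of Fam19a5 are not separated. Of 22373 identifiers, 22274 matched a symbol.

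Genes with at least 32 footprints over the 2 libraries of any stage were kept (13484). Changes were tested with limma-voom (limma 3.58.1, R 4.3.3) on counts scaled by TMM (edgeR 4.0.16), with 1 coefficient per stage over all 10 libraries. The study also used voom, but its methods name length-corrected counts as input and no TMM scaling. Tests were two-sided, with Benjamini-Hochberg adjustment over all genes kept, and calls needed an adjusted p under 0.05 and a level at least 25% above the lower one. The alternatives were edgeR's quasi-likelihood test, DESeq2 1.42.0, other scalings, no filter, sample quality weights, a replicate block, fits of 2 stages and leaving out each library. Between 7544404 and 36129988 counts per library, 1 count was worth 0.0239 to 0.109 CPM. Intervals are exact 95% Poisson or Clopper-Pearson intervals and, like the floor of 3 counts, cover counting error only. The code was tested on simulated data. The 10 columns were all used.

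Fam19a1 was selected on its own values, the other members were added by name, and all members and lists were chosen with earlier results of these data known, which limits every test of them. Named genes are the 5 members, 7 reported binding partners (1 more on the list is not reported here), 14 other neurexin ligands and, for each tested member, the 4 genes with the highest Pearson correlation of log2 CPM (prior count 2; mean of at least 100 counts). Shares per coding length were not computed, because coding lengths were not used here.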

Additional observations from a re-analysis of the deposited data

How the results depend on the processing

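With 2 libraries a stage, calls near the threshold depended on single libraries. Over fits without one library, called members ranged from 0 to 0 for E12.5 to E14, 1 to 1 for E14 to E15.5, 0 to 3 for E15.5 to E17, 0 to 1 for E17 to P0 and 1 to 2 for E12.5 to P0, and called genes of both partner lists from 0 to 2, 7 to 11, 0 to 11, 1 to 8 and 12 to 17, against 0, 10, 4, 2 and 15 with all libraries. The count of 0 members from E15.5 to E17 came from leaving out any one of the E15.5 and E17 libraries, where nearly all calls over all genes were lost too. The 3 came without either P0 library, the 1 from E17 to P0 without P0 replicate 1, and the 1 from E12.5 to P0 without P0 replicate 2. Calls over all genes also rose without either P0 library from E15.5 to E17 and without P0 replicate 1 from E17 to P0. Members called were 2 from E14 to E15.5 with total counts only (6057 over all genes, against 4868 in the main fit). From E15.5 to E17 they were 1 with no filter and 1 with edgeR (773 and 982 over all genes, against 1219). From E12.5 to P0, 1 was called with sample quality weights (6249 over all genes, against 8371). With sample quality weights, partner genes called were 1, 11 and 1 for E12.5 to E14, E15.5 to E17 and E17 to P0. Over all genes the weights called 655, 3717 and 698 there, against 86, 1219 and 2767 without them. In fits of only the 2 stages, partner genes called were 11 and 0 for E15.5 to E17 and E17 to P0. Calls over all genes in those fits were 3212 and 0. The log2 fold change of Fam19a1 from E12.5 to E14, -0.62 from 9 footprints in all, was 1.27 without E12.5 replicate 1, 0.20 without E14 replicate 1 and -3.23 without E12.5 replicate 2. The cause of these changes was not tested.

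Same-numbered replicates did not deviate together at every pair of stages: the correlation of their deviations ran from -0.64 to 0.43 over 10 pairs, was over 0.1 in 5 pairs, none with E12.5, and was negative in all pairs with E12.5. The replicate block called 0, 1, 2, 0 and 2 members in the 5 comparisons, as without it, and 11 partner genes instead of 10 from E14 to E15.5 and 5 instead of 4 from E15.5 to E17. Over all genes it called 4 instead of 86 from E12.5 to E14 and 819 instead of 1219 from E15.5 to E17. Counts of 0 to 7 per library limit Fam19a1 before E15.5, and depth limits Fam19a3 and Fam19a4 throughout. The planned shares per coding length were not run, since coding lengths were not used here.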
